A study of Mus musculus with 9 samples.

Results

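The ADAMTS genes encode secreted metalloproteases with thrombospondin repeats, and 8 of them were followed here in mouse skin. Members were the rows of the deposited count table that carry the symbols Adamts1, Adamts2, Adamts3, Adamts4, Adamts5, Adamts9, Adamts14 and Adamts15, which makes 8 of 57180 genes. All 8 passed the filter on low counts and were among the 17168 genes tested.

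Transcripts were sequenced from the skin of BALB/c nude mice, which lack a thymus and most of their fur, in 9 libraries. UVB-hCOL3A1 skin (3 libraries) was exposed to ultraviolet B and given hCOL3A1, which the series title ties to type III collagen delivered as mRNA. UVB-Saline skin (3 libraries) had the same exposure and saline, and NoUVB skin (3 libraries) had no exposure. Exposure of the back on alternate days began at 60 mJ/cm² (1 minimal erythemal dose) and ended at 240 mJ/cm² (4 minimal erythemal doses) within 8 weeks, while collection is placed at day 28 with no stated start of that count. The labels give no saline treatment for NoUVB, no group given the mRNA carrier without hCOL3A1, no dose or route, and no age, sex or animal for a library. The p-values therefore cover the spread among the 9 samples, part of which may be technical.

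Among the 8 members, ADAMTS1, ADAMTS4, ADAMTS5, ADAMTS9 and ADAMTS15 are hyalectanases, which cut aggrecan, versican and related proteoglycans that bind hyaluronan. ADAMTS2, ADAMTS3 and ADAMTS14 are the procollagen N-proteinases, which remove the amino propeptide of fibrillar procollagens so that collagen can assemble into fibrils. In skin, versican and type I and III collagen are products of dermal fibroblasts, and loss of ADAMTS2 gives fragile skin in humans, cattle and mice. These enzymes are made as proforms, cut by furin-type convertases, bound by TIMP3 and cleared by LRP1, so a transcript level is not an enzyme activity.

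Promoter sequence was at hand for 5 of the 8 genes, Adamts1, Adamts9, Adamts2, Adamts3 and Adamts14. The 250 bases before the start of 3 of them are printed 5′ to 3′ on the strand of the gene, as given by RefSeq for GRCm38.p6, which is another build than that of the counts. They belong to the member hyalectanases with a sequence at hand, both without overlap between UVB-Saline and NoUVB skin, and to the most abundant member per length. Adamts1 lies at chr16:85803114-85803363 on the minus strand, Adamts9 at chr6:92943535-92943784 on the minus strand and Adamts2 at chr11:50601835-50602084 on the plus strand. Capitals mark the GC box (GGGCGG, or CCGCCC on the other strand) and the TATA box (TATAAA, on either strand).
Adamts1: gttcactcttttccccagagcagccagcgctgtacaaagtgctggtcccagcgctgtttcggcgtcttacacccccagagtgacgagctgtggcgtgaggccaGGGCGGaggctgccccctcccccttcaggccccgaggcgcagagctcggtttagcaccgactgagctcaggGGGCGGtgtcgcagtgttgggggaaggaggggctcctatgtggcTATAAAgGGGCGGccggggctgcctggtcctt
Adamts9: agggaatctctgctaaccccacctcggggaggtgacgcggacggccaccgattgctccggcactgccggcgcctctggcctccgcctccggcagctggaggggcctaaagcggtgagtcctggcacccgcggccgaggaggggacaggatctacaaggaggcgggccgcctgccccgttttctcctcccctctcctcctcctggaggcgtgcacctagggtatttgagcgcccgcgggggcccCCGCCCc
Adamts2: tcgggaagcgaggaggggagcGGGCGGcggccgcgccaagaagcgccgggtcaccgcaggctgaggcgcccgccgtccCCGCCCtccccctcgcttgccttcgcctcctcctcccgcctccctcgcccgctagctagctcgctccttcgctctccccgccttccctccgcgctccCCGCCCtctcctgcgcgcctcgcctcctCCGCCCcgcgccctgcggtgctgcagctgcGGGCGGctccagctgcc
In Adamts1 the window held 3 GC boxes and 1 TATA box, just before one of them. The Adamts9 window held 1 GC box at its end and no TATA box, and that of Adamts2 held 5 GC boxes and no TATA box. GC boxes were in all 5 available windows, against 32.9% of the windows of 27025 genes. A TATA box was in 1 of the 5, against 13% of all, and the AP-1 site TGANTCA, which Fos and Jun proteins bind, was in 0 of 5, against 6.87% of all. The windows were 65.6% to 78% G and C, against a median of 52% over all genes.

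The 9 libraries held 7640172 to 12927411 estimated counts, of which 18S ribosomal RNA (Rn18s-rs5) took 7.71% to 55.3%. Both ends of this range lay in NoUVB skin, with the lowest share in NoUVB 2 and the highest in NoUVB 1. The libraries UVB-Saline 3 and UVB-hCOL3A1 3 stood apart on the first principal component at 54.98 and 39.76, while the other 7 lay between -33.48 and 10.05. Fold changes that they move most are also given without them. Levels are CPM, counts scaled to library size, after TMM scaling, and in bulk skin fewer cells of a type and less RNA per cell cannot be told apart. A fold change is the value fitted by edgeR. Its standard error (SE) is not given by the fit and was derived as the absolute log2 fold change divided by the square root of the F statistic of the test. The p of a fold change is adjusted over all genes tested by the method of Benjamini and Hochberg with 0.05 as the threshold.

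No member passed the threshold in any of the 3 comparisons, so each difference given below is a measured value and not a call. Between UVB-Saline and NoUVB skin edgeR called 0 of 8 members, where 0.0175% of all genes were called, and 3 members had an unadjusted p under 0.05, against 9.54% of all genes. Between UVB-hCOL3A1 and UVB-Saline skin it called 0 of 8 members and 0% of all genes, and 1 member had an unadjusted p under 0.05, against 11.3% of all genes. Between UVB-hCOL3A1 and NoUVB skin it called 0 of 8 members and 0.0408% of all genes, and 3 members had an unadjusted p under 0.05, against 11.8% of all genes. DESeq2 called 1, 0 and 1 members in these comparisons, in both cases Adamts4, where it called 0.706%, 1.43% and 1.73% of all genes to which it gave an adjusted p. With no filter edgeR called the same 1, 0 and 1 members and 0.205%, 0.298% and 0.501% of all genes. Calls by limma voom were 0 of 8 members in each comparison and 0.0116%, 0% and 0% of all genes.

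**Figure D1:**
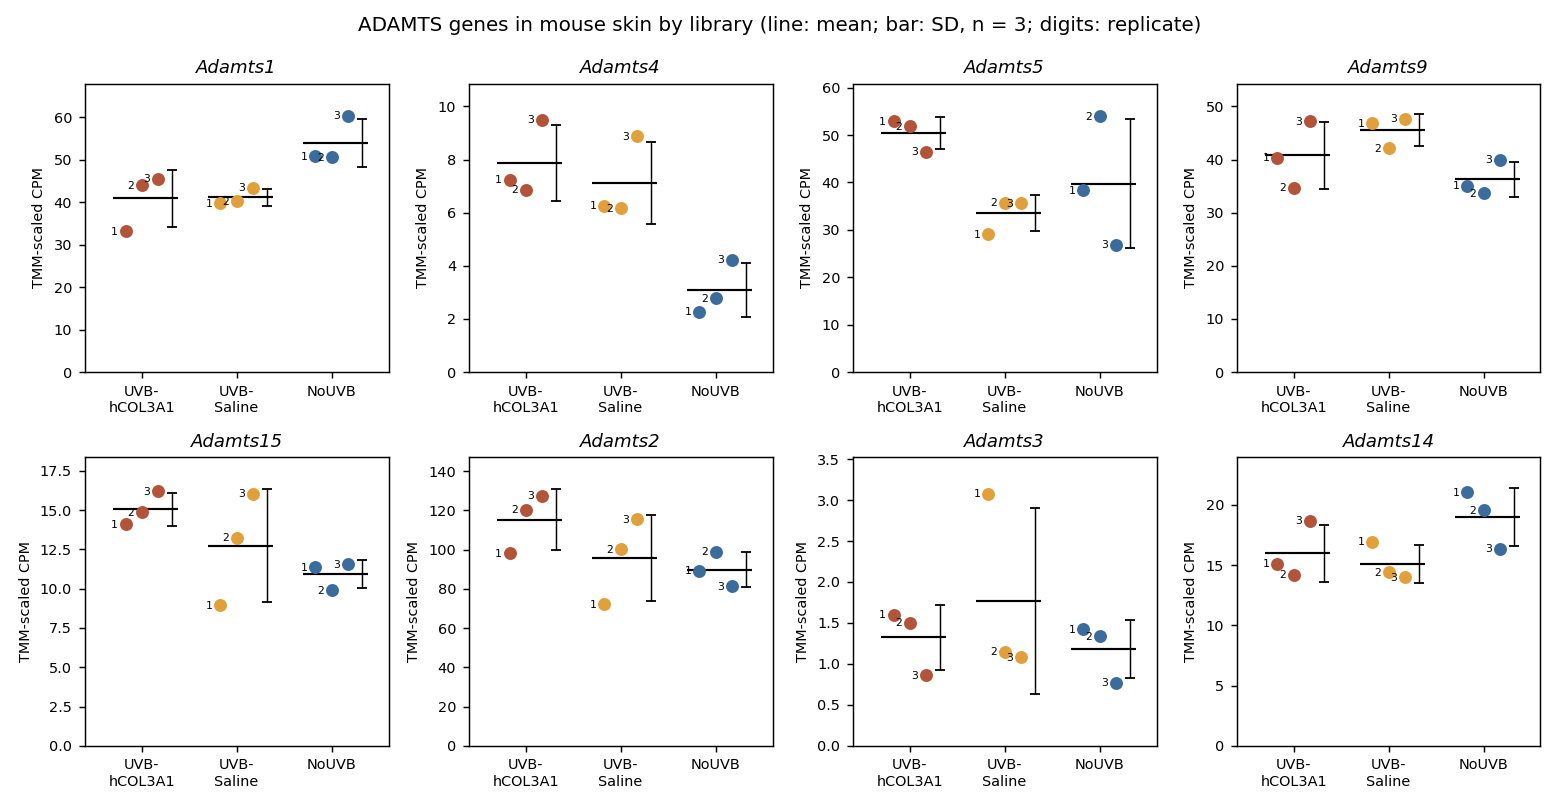
TMM-scaled CPM of each ADAMTS gene (vertical axes from 0) in UVB-hCOL3A1, UVB-Saline and NoUVB skin, with 1 point per library, its replicate number beside it, and the group mean and SD (n = 3). Adamts4 lies between 6.17 and 9.50 CPM in the 6 irradiated libraries and between 2.27 and 4.23 CPM in the 3 NoUVB libraries, and Adamts1 lies higher in NoUVB skin than in both irradiated groups.

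Adamts4 (ENSMUSG00000006403), an aggrecan- and versican-cutting protease, differed most among the members between irradiated and non-irradiated skin. It stood at 7.24, 6.87 and 9.50 CPM in UVB-hCOL3A1 skin, at 6.26, 6.17 and 8.89 CPM in UVB-Saline skin and at 2.27, 2.77 and 4.23 CPM in NoUVB skin. Every irradiated library was thus above every NoUVB library, while the irradiated groups overlapped each other. The NoUVB values rested on estimated counts of 16.29, 31 and 43.85, so this gene is thinly covered there. Its log2 fold change was 1.17 ± 0.26 for UVB-Saline against NoUVB (2.26-fold, edgeR adjusted p = 0.266) and 1.32 ± 0.26 for UVB-hCOL3A1 against NoUVB (2.5-fold, adjusted p = 0.126). For UVB-hCOL3A1 against UVB-Saline it was 0.15 ± 0.24 (adjusted p = 0.868), with 0.36 without UVB-Saline 3 and 0.019 without UVB-hCOL3A1 3.

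Whether Adamts4 passed the threshold depended on the fit. DESeq2 gave adjusted p = 0.0343 for UVB-Saline against NoUVB and 0.00439 for UVB-hCOL3A1 against NoUVB, and edgeR with no filter on low counts gave 0.0156 and 0.00168. Over 20 alternatives the adjusted p ranged from 0.0156 to 0.764 in the first of these comparisons and from 0.00168 to 0.33 in the second, and the log2 fold change from 0.97 to 1.46 and from 1.18 to 1.63. Without UVB-Saline 3 and UVB-hCOL3A1 3 the log2 fold changes were 0.97 (adjusted p = 0.356) and 1.18 (adjusted p = 0.0771).

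Adamts1 (ENSMUSG00000022893), a versican- and aggrecan-cutting protease, was lower in irradiated skin by value. Its levels were 33.2, 44.0 and 45.6 CPM in UVB-hCOL3A1 skin, 39.7, 40.3 and 43.5 CPM in UVB-Saline skin and 50.8, 50.6 and 60.4 CPM in NoUVB skin. All 6 irradiated libraries lay below all 3 NoUVB libraries, with a log2 fold change of -0.39 ± 0.13 for UVB-Saline against NoUVB (adjusted p = 0.402) and -0.40 ± 0.13 for UVB-hCOL3A1 against NoUVB (adjusted p = 0.278). The irradiated groups had near-equal means, 40.9 ± 6.75 CPM in UVB-hCOL3A1 and 41.2 ± 2.02 CPM in UVB-Saline skin (SD, n = 3 each), with a log2 fold change of -0.01 ± 0.13 (adjusted p = 0.988).

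The immediate early genes, which handling of tissue is known to raise, were also lower by value in irradiated skin. The 10 genes summed to 333.7 to 444.5 CPM in UVB-hCOL3A1, 387.9 to 461.2 CPM in UVB-Saline and 537.8 to 906.2 CPM in NoUVB skin. All 10 had a negative log2 fold change in both comparisons with NoUVB, 0 of them passed the threshold, and their part in the Adamts1 values was not tested.

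Adamts9 (ENSMUSG00000030022), a versican-cutting protease that also acts in the secretory pathway and at the base of cilia, had the highest values in UVB-Saline skin. It measured 40.3, 34.7 and 47.3 CPM in UVB-hCOL3A1, 46.9, 42.2 and 47.7 CPM in UVB-Saline and 35.1, 33.7 and 40.01 CPM in NoUVB skin. UVB-Saline and NoUVB libraries did not overlap, whereas UVB-hCOL3A1 libraries overlapped both. On the log2 scale the fitted fold change was 0.33 ± 0.13 for UVB-Saline against NoUVB (adjusted p = 0.454) and -0.16 ± 0.13 for UVB-hCOL3A1 against UVB-Saline (adjusted p = 0.667). In GENCODE M21 its exons overlap 2 transcripts of the opposite strand, A730049H05Rik and Gm15737, and its estimated counts were not whole in 9 of 9 libraries. Whether the counting used strand is not given in the sources used here, and reads of overlapping genes cannot be told apart.

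Adamts5 (ENSMUSG00000022894), a major aggrecan-cutting protease of mouse cartilage, was the member with the largest difference between the irradiated groups. It stood at 53.0, 51.8 and 46.5 CPM in UVB-hCOL3A1 skin and at 29.2, 35.8 and 35.7 CPM in UVB-Saline skin. Every UVB-hCOL3A1 library exceeded every UVB-Saline library, and the log2 fold change was 0.59 ± 0.21 (1.51-fold, edgeR adjusted p = 0.37). NoUVB skin held 38.3, 53.9 and 26.8 CPM, so it overlapped both irradiated groups and varied more than either. The log2 fold change was -0.25 ± 0.21 for UVB-Saline against NoUVB (adjusted p = 0.77) and 0.34 ± 0.21 for UVB-hCOL3A1 against NoUVB (adjusted p = 0.567). NoUVB 2 decided the sign of the first of these, which was 0.04 without it.

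Markers of several cell types also differed by value between the irradiated groups. The 9 fibroblast markers summed to 7207 to 8664 CPM in UVB-hCOL3A1 skin and 5618 to 6048 CPM in UVB-Saline skin, and 9 of 9 had a positive log2 fold change. The 7 macrophage and monocyte markers summed to 557.5 to 772.4 CPM in UVB-hCOL3A1 and 241.2 to 637.6 CPM in UVB-Saline skin, and 7 of 7 were positive. The 8 adipocyte markers summed to 576.9 to 877.5 CPM in UVB-hCOL3A1 and 359.1 to 530.8 CPM in UVB-Saline skin, 8 of 8 positive with a median log2 fold change of 0.906. The 6 skeletal muscle markers summed to 782.3 to 1273 CPM in UVB-hCOL3A1 and 197.5 to 633.9 CPM in UVB-Saline skin, with 5 of 6 positive. Basal and suprabasal keratinocyte markers were negative in 7 of 7 and 7 of 7. Sums overlapped for the macrophage markers and not for fibroblasts, adipocytes and muscle. None of these lists had a member past the threshold or a marker at 0 in all libraries, and their part in the Adamts5 values was not tested.

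Adamts15 (ENSMUSG00000033453), a versican-cutting protease, measured 14.1, 14.9 and 16.2 CPM in UVB-hCOL3A1, 8.93, 13.2 and 16.0 CPM in UVB-Saline and 11.4, 9.91 and 11.5 CPM in NoUVB skin. UVB-hCOL3A1 libraries lay above all NoUVB libraries, and UVB-Saline libraries spanned both. Its log2 fold changes were 0.46 ± 0.19 for UVB-hCOL3A1 against NoUVB (adjusted p = 0.385), 0.22 ± 0.19 for UVB-Saline against NoUVB (adjusted p = 0.77) and 0.24 ± 0.19 for UVB-hCOL3A1 against UVB-Saline (adjusted p = 0.674). The last 2 of these rested on single UVB-Saline libraries. They were 0.018 and 0.45 without UVB-Saline 3, and 0.42 and 0.042 without UVB-Saline 1.

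Among the procollagen N-proteinases, Adamts2 (ENSMUSG00000036545), the main one of skin, had 98.0, 120 and 128 CPM in UVB-hCOL3A1 skin. UVB-Saline skin had 72.2, 100 and 115 CPM and NoUVB skin 89.2, 99.0 and 81.3 CPM. All 3 groups overlapped, although 2 of the 3 UVB-hCOL3A1 libraries were above every other library. The log2 fold change was 0.36 ± 0.17 for UVB-hCOL3A1 against NoUVB (adjusted p = 0.437), 0.27 ± 0.17 for UVB-hCOL3A1 against UVB-Saline (adjusted p = 0.59) and 0.09 ± 0.17 for UVB-Saline against NoUVB (adjusted p = 0.9). The last of these was -0.072 without UVB-Saline 3 and 0.26 without UVB-Saline 1, and the value for UVB-hCOL3A1 against UVB-Saline was 0.44 without UVB-Saline 3 and 0.098 without UVB-Saline 1.

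Adamts14 (ENSMUSG00000059901), another procollagen N-proteinase, had its highest mean in NoUVB skin. It measured 15.1, 14.2 and 18.7 CPM in UVB-hCOL3A1, 16.9, 14.4 and 14.0 CPM in UVB-Saline and 21.0, 19.6 and 16.4 CPM in NoUVB skin. The lowest NoUVB library overlapped both irradiated groups. Fitted log2 fold changes were -0.33 ± 0.15 for UVB-Saline against NoUVB (adjusted p = 0.538), -0.25 ± 0.15 for UVB-hCOL3A1 against NoUVB (adjusted p = 0.559) and 0.08 ± 0.15 for UVB-hCOL3A1 against UVB-Saline (adjusted p = 0.887).

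Adamts3 (ENSMUSG00000043635), which cuts procollagen II in cartilage and, with CCBE1, the lymphatic growth factor VEGF-C, was close to the limit of detection. It had 1.60, 1.51 and 0.864 CPM in UVB-hCOL3A1, 3.08, 1.15 and 1.08 CPM in UVB-Saline and 1.42, 1.34 and 0.769 CPM in NoUVB skin, on 8 to 30 counts a library. UVB-Saline 1 stood above the other 8 libraries, which all lay at or below 1.60 CPM. The log2 fold change of 0.59 ± 0.48 for UVB-Saline against NoUVB (adjusted p = 0.746) was -0.05 without that library, and -0.39 ± 0.46 for UVB-hCOL3A1 against UVB-Saline (adjusted p = 0.803) was 0.26 without it. For UVB-hCOL3A1 against NoUVB the log2 fold change was 0.20 ± 0.49 (adjusted p = 0.91).

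**Figure D2:**
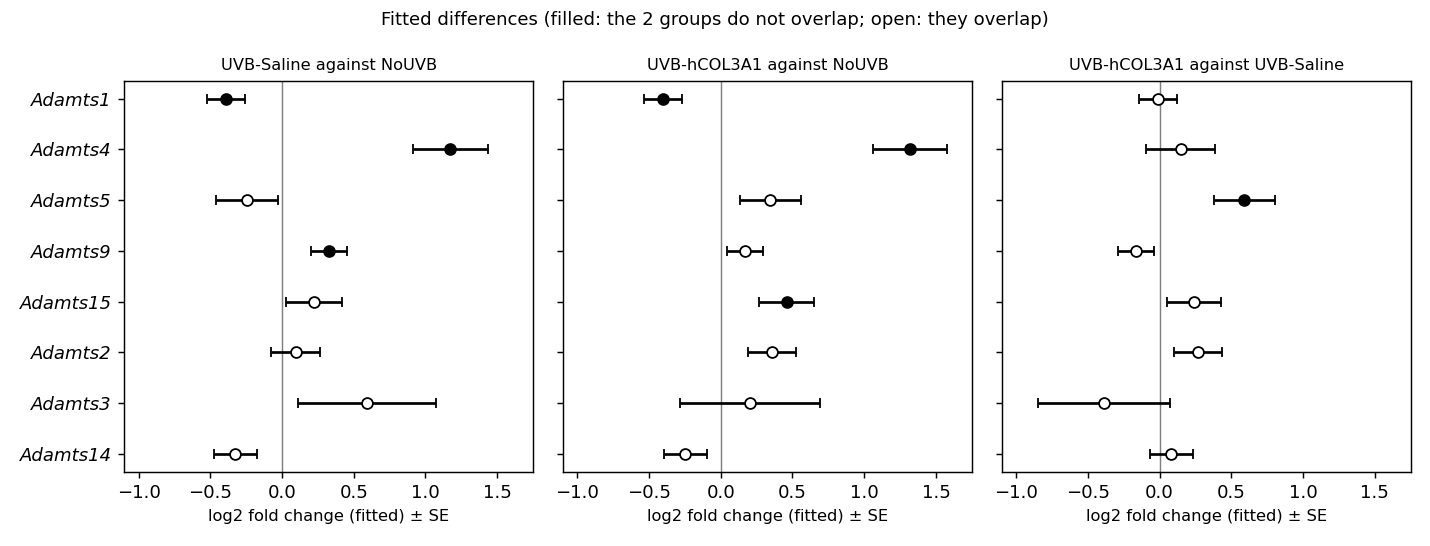
Fitted log2 fold change with its SE (horizontal axes) for each ADAMTS gene in the 3 comparisons, which share groups. Filled points mark genes whose groups do not overlap: Adamts1, Adamts4 and Adamts9 for UVB-Saline against NoUVB, Adamts1, Adamts4 and Adamts15 for UVB-hCOL3A1 against NoUVB, and Adamts5 for UVB-hCOL3A1 against UVB-Saline.

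Counted over the 8 members, groups did not overlap for 2 higher and 1 lower gene between UVB-Saline and NoUVB, against 7.18% and 6.61% of all genes tested. Between UVB-hCOL3A1 and UVB-Saline it was 1 higher and 0 lower, against 8.95% and 8.33% of all genes, which is near that background. Between UVB-hCOL3A1 and NoUVB it was 2 higher and 1 lower, against 10.7% in each direction. Positive log2 fold changes numbered 5 of 8 for UVB-Saline against NoUVB (51.8% of all genes), 5 of 8 for UVB-hCOL3A1 against UVB-Saline (46.1%) and 6 of 8 for UVB-hCOL3A1 against NoUVB (49.2%). The median log2 fold change of the members was 0.158 for UVB-Saline against NoUVB (all genes 0.0113), 0.114 for UVB-hCOL3A1 against UVB-Saline (all genes -0.0235) and 0.274 for UVB-hCOL3A1 against NoUVB (all genes -0.0051). UVB-Saline 3 bore on the first of these, which was -0.0267 without it, and on the second, which was 0.204 without it. UVB-hCOL3A1 3 bore on the second as well, which was -2.14e-05 without that library.

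Levels of different genes were compared per kilobase of the principal transcript in GENCODE M21. In UVB-hCOL3A1 skin the order was Adamts2 (15.9 ± 2.12 CPM per kb, SD, n = 3), Adamts1 (8.38), Adamts9 (5.09), Adamts5 (4.68), Adamts14 (3.08), Adamts15 (2.54), Adamts4 (1.79) and Adamts3 (0.336). The same order of mean levels was found in UVB-Saline and NoUVB skin, where Adamts2 stood at 13.2 ± 3.02 and 12.4 ± 1.22 CPM per kb. Adamts1 stood at 8.43 CPM per kb in UVB-Saline skin and at 11.05 ± 1.14 CPM per kb in NoUVB skin, where its libraries overlapped those of Adamts2. The neighbours that overlapped were Adamts9 and Adamts5 in UVB-hCOL3A1 skin, and Adamts5 and Adamts14, Adamts14 and Adamts15, and Adamts15 and Adamts4 in UVB-Saline skin. In NoUVB skin Adamts9 and Adamts5, and Adamts5 and Adamts14, also overlapped.

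**Figure D3:**
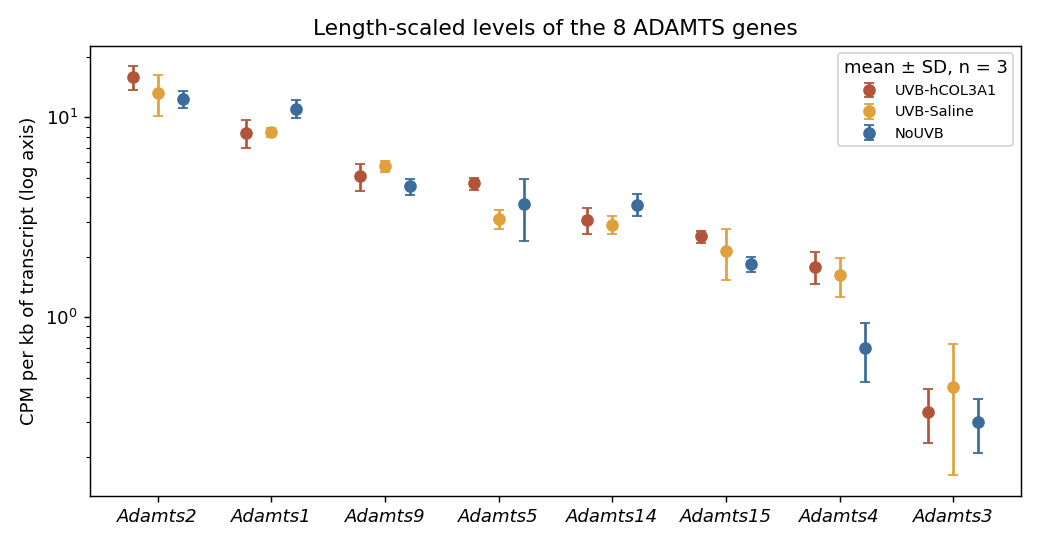
CPM per kilobase of transcript (vertical log axis, mean and SD, n = 3) of the 8 ADAMTS genes in UVB-hCOL3A1, UVB-Saline and NoUVB skin. Adamts2 is highest at 12.4 to 15.9 CPM per kb and Adamts3 lowest, below 1 CPM per kb, in all 3 groups.

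Summed per kilobase, the 5 member hyalectanases gave 22.5 ± 1.85 CPM per kb in UVB-hCOL3A1, 21.0 ± 1.70 CPM per kb in UVB-Saline and 21.8 ± 0.993 CPM per kb in NoUVB skin (SD, n = 3 each), ranges that overlapped. Adamts1 was 37.2% ± 4.03 of it in UVB-hCOL3A1, 40.2% ± 1.29 in UVB-Saline and 50.6% ± 3.50 in NoUVB skin, with the highest irradiated library at 41.5% and the lowest NoUVB library at 47.4%. Adamts4 was 7.95% ± 0.909 in UVB-hCOL3A1, 7.67% ± 1.05 in UVB-Saline and 3.21% ± 0.916 in NoUVB skin. Adamts9 was 22.6% ± 2.71, 27.2% ± 2.30 and 20.7% ± 1.39 of the sum in UVB-hCOL3A1, UVB-Saline and NoUVB skin, and its UVB-Saline libraries lay above those of both other groups. These shares were not tested, and they sum to a fixed total, so a lower share of one gene raises those of the others.

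**Figure D4:**
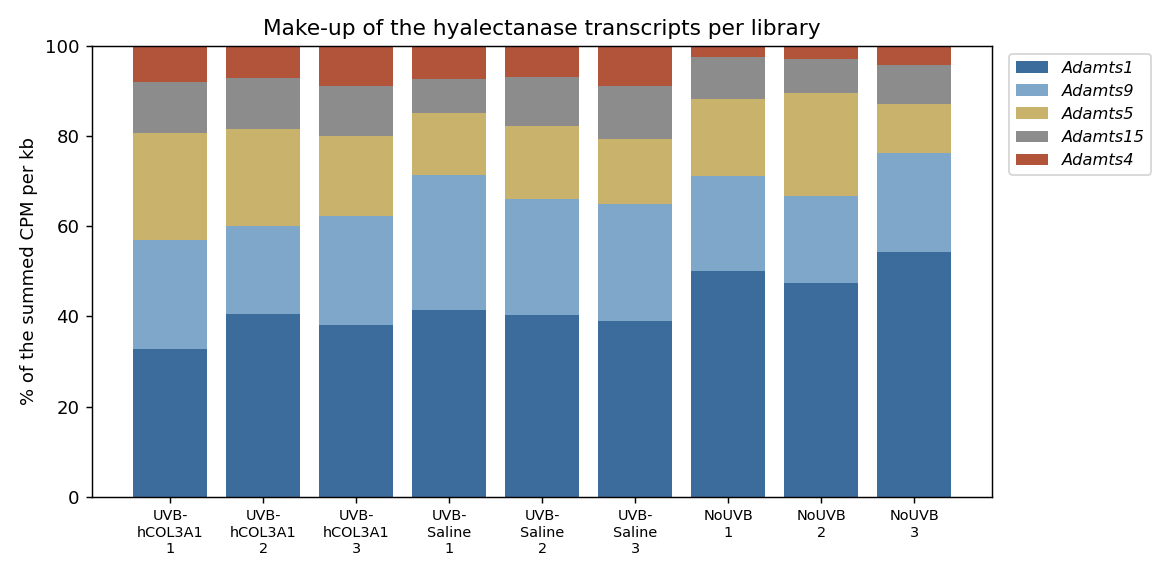
Share of each member hyalectanase gene in the summed CPM per kilobase of these 5 members (vertical axis, %), with 1 bar per library. Adamts1 makes up 47.4% to 54.3% in the NoUVB libraries and 32.7% to 41.5% in the 6 irradiated ones.

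The 3 procollagen N-proteinases summed to 19.3 ± 2.31 CPM per kb in UVB-hCOL3A1, 16.6 ± 2.45 CPM per kb in UVB-Saline and 16.3 ± 1.64 CPM per kb in NoUVB skin. Adamts2 was 82.2% ± 1.94 of this sum in UVB-hCOL3A1, 79.0% ± 7.02 in UVB-Saline and 75.8% ± 1.93 in NoUVB skin. Adamts14 was 16.0% ± 1.84, 18.04% ± 4.73 and 22.4% ± 1.64 in the same groups. For both shares, the UVB-hCOL3A1 and NoUVB libraries did not overlap, and the UVB-Saline libraries overlapped each of them. Adamts3 averaged only 1.80% to 2.93% of the sum, so the shares of Adamts2 and Adamts14 mirror each other and are not 2 separate results. In CPM, UVB-hCOL3A1 and NoUVB libraries overlapped for both genes. These shares were not tested.

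The substrates, processing partners and regulators of these proteases were read from lists of 56 further genes, of which 45 were tested. None passed the threshold in edgeR in any comparison. For UVB-Saline against NoUVB 1 was higher and 9 were lower at an unadjusted p under 0.05, against 4.93% and 4.6% of all genes, with a median log2 fold change of -0.172. For UVB-hCOL3A1 against UVB-Saline 12 were higher and 3 lower, against 5.97% and 5.32% of all genes, with a median of 0.223. For UVB-hCOL3A1 against NoUVB 6 were higher and 8 lower, against 6.29% and 5.52% of all genes, with a median of -0.0135. DESeq2 called 1, 6 and 5 of them in these comparisons, where it called 0.706%, 1.43% and 1.73% of all genes, and limma voom called 0 in each.

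Markers of several cell types and transcripts used as signs of RNA quality were also lower by value in UVB-Saline than in NoUVB skin. Log2 fold changes were negative for 8 of 8 adipocyte (median -1.03), 8 of 8 hair follicle and 6 of 6 Schwann cell markers and for 8 of 8 mitochondrial transcripts. Fibroblast markers were negative in 8 of 9, smooth muscle and pericyte in 7 of 8, lymphatic endothelial in 6 of 7 and skeletal muscle in 4 of 6. Blood endothelial markers were negative in 4 of 8. Suprabasal keratinocyte markers were positive in 5 of 7, and basal keratinocyte and macrophage and monocyte markers in 4 of 7 each. The adipocyte markers summed to 359.1 to 530.8 CPM in UVB-Saline and 477.4 to 1172 CPM in NoUVB skin. Mitochondrial transcripts summed to 13010 to 18230 CPM in UVB-hCOL3A1, 14510 to 23000 CPM in UVB-Saline and 20840 to 28080 CPM in NoUVB skin. Their part in the values of the pathway genes was not tested.

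Versican (Vcan), the hyaluronan-binding proteoglycan of the dermis and a substrate of the hyalectanases, had its highest values in UVB-hCOL3A1 skin. It stood at 161, 173 and 128 CPM in UVB-hCOL3A1, 117, 97.6 and 88.6 CPM in UVB-Saline and 85.5, 91.3 and 95.6 CPM in NoUVB skin. UVB-hCOL3A1 libraries exceeded all others, while UVB-Saline and NoUVB libraries overlapped. Fitted log2 fold changes of Vcan were 0.61 ± 0.13 for UVB-hCOL3A1 against UVB-Saline (edgeR adjusted p = 0.202), 0.76 ± 0.13 for UVB-hCOL3A1 against NoUVB (adjusted p = 0.0854) and 0.15 ± 0.13 for UVB-Saline against NoUVB (adjusted p = 0.767). DESeq2 called both of the comparisons with UVB-hCOL3A1, at adjusted p = 0.0143 and 0.000446. Of the 5 tested genes of hyalectans, hyaluronan synthases and link proteins, 4 had a positive log2 fold change for UVB-hCOL3A1 against UVB-Saline. The exception, the hyaluronan synthase Has3, had the largest difference of the 5 by size at -0.68 ± 0.30 (adjusted p = 0.434). Has3 stood at 9.53, 9.22 and 10.1 CPM in UVB-hCOL3A1 and at 12.4, 9.70 and 24.3 CPM in UVB-Saline skin. These libraries overlapped, and UVB-Saline 3 held the highest value.

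Procollagen genes were also higher by value in UVB-hCOL3A1 than in UVB-Saline skin. All 5 tested (Col1a1, Col1a2, Col3a1, Col5a1 and Col5a2), substrates of the N-proteinases, had a positive log2 fold change for UVB-hCOL3A1 against UVB-Saline, from 0.30 to 0.42, and 3 of them did not overlap, against 8.95% of all genes. Col1a1, Col1a2 and Col3a1 also stand among the fibroblast markers, whose higher sum in UVB-hCOL3A1 skin is given above. The part of fibroblast content in the versican, collagen and Adamts2 values was not tested. Counts were made on the mouse genome, and whether any reads of delivered hCOL3A1 were counted as mouse Col3a1 was not tested. Pcolce, an enhancer of the C-proteinase BMP1 that removes the other propeptide, averaged 48.7 ± 5.16 CPM in UVB-hCOL3A1, 28.4 ± 2.53 CPM in UVB-Saline and 40.4 ± 4.65 CPM in NoUVB skin. Its log2 fold change was 0.78 ± 0.12 for UVB-hCOL3A1 against UVB-Saline (edgeR adjusted p = 0.128, DESeq2 adjusted p = 0.000353). Its paralogue Pcolce2 averaged 17.8 ± 0.99 CPM in UVB-hCOL3A1, 10.6 ± 2.92 CPM in UVB-Saline and 24.8 ± 8.57 CPM in NoUVB skin, with -1.22 ± 0.26 for UVB-Saline against NoUVB (edgeR adjusted p = 0.266, DESeq2 adjusted p = 0.0053). Bmp1 itself had a log2 fold change of 0.04 ± 0.09 for UVB-hCOL3A1 against UVB-Saline (adjusted p = 0.923).

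Among 8 tested ADAMTS proteases outside the 8 members, Adamts12 averaged 35.8 ± 2.66 CPM in UVB-hCOL3A1, 24.0 ± 2.7 CPM in UVB-Saline and 32.3 ± 4.55 CPM in NoUVB skin. Its log2 fold change for UVB-hCOL3A1 against UVB-Saline was 0.58 ± 0.13 (edgeR adjusted p = 0.206, DESeq2 adjusted p = 0.0261). Adamts17 averaged 7.72 ± 1.17 CPM in UVB-hCOL3A1, 7.93 ± 1.58 CPM in UVB-Saline and 4.51 ± 0.934 CPM in NoUVB skin, with 0.81 ± 0.22 for UVB-Saline against NoUVB (adjusted p = 0.319). Like Adamts4 it was higher in every irradiated library than in every NoUVB library, and it did not pass the test. The ADAMTS-like proteins and papilin, which share the thrombospondin repeats but lack the protease, had 6 of 6 negative log2 fold changes in both comparisons with NoUVB, and 0 passed.

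Timp3, the inhibitor that binds ADAMTS4 and ADAMTS5, averaged 156 ± 29.5 CPM in UVB-hCOL3A1, 136 ± 21.1 CPM in UVB-Saline and 165 ± 22.5 CPM in NoUVB skin. Its log2 fold change was -0.28 ± 0.16 for UVB-Saline against NoUVB (adjusted p = 0.631) and 0.20 ± 0.16 for UVB-hCOL3A1 against UVB-Saline (adjusted p = 0.681). Fbln1, a matrix cofactor of ADAMTS1, gave -0.33 ± 0.14 (adjusted p = 0.508) and 0.27 ± 0.14 (adjusted p = 0.498) in these comparisons. Of 13 tested inhibitors, activators, cofactors and clearance genes, 4 were higher and 2 lower at an unadjusted edgeR p under 0.05 for UVB-hCOL3A1 against UVB-Saline. All genes gave 5.97% and 5.32%. Sparc was at 0.51 ± 0.11 (edgeR adjusted p = 0.202, DESeq2 adjusted p = 0.0041) and Sdc1 at -0.39 ± 0.085 (edgeR adjusted p = 0.202, DESeq2 adjusted p = 0.0143). On the lymphatic axis of Adamts3, the growth factors Vegfc and Vegfd, their receptor Flt4 and the cofactor Ccbe1 were tested. For UVB-Saline against NoUVB their log2 fold changes were 0.64 ± 0.33, -0.25 ± 0.24, -0.15 ± 0.15 and 0.15 ± 0.22 in that order, with adjusted p of 0.599 to 0.869. For UVB-hCOL3A1 against UVB-Saline they were -0.04 ± 0.31, 0.63 ± 0.23, 0.32 ± 0.15 and 0.22 ± 0.21, with adjusted p of 0.37 to 0.997. Vegfc rested on 8 to 27 counts a library, so it was close to the limit of detection. The 7 lymphatic endothelial markers, which include Flt4, summed to 166.4 to 177.6 CPM in UVB-hCOL3A1, 111.5 to 134.5 CPM in UVB-Saline and 146.2 to 180.3 CPM in NoUVB skin. Their part in the values of this axis was not tested.

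Likeness of profiles was measured as the root mean square difference of centred log2 CPM over the 9 libraries, where 0 means the same profile. Among the members, Adamts2 and Adamts15 were closest at 0.146, then Adamts1 and Adamts14 at 0.226, and Adamts3 and Adamts4 were farthest at 0.83. Adamts1 and Adamts5, neighbours on chromosome 16 with no coding gene between them in RefSeq, were 0.485 apart. Over 13001 genes compared with each well-covered member, the genes closest to Adamts2 were Mmp2 (0.0783), C1qtnf2 (0.0835) and Thbs1 (0.0883), and those closest to Adamts5 were Esr1 (0.131), Paqr4 (0.132) and Zfp423 (0.153). Closest to Adamts1 were Srgap3 (0.1), Casp6 (0.111) and Slc19a1 (0.118), to Adamts9 Chuk (0.0619), Slx4ip (0.0634) and Cacfd1 (0.067), and to Adamts15 Got1 (0.0486), Myof (0.0846) and Pcdhgc5 (0.0855). For Adamts14 they were Ldb1 (0.0797), Crtc1 (0.0955) and Smarcc2 (0.0973). The least abundant members had more distant partners, namely F5 (0.241), Crabp1 (0.264) and S1pr2 (0.279) for Adamts4 and Etv4 (0.233) and Efna4 (0.246) for Adamts3. All these values share the same 9 libraries and their scaling, and serve as a description.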

How the data were processed

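The authors deposited 1 table of estimated counts per gene for the 9 libraries. Per the submitters' processing notes, RSEM 1.3.3, STAR 2.7.11b, fastp 0.23.4, DESeq2 1.44.0 and Bowtie2 2.5.4 were used with GRCm39, with their roles, the annotation release and the strand setting not given in the sources used here. Estimated counts were rounded and tested with edgeR 4.0.16 in R 4.3.3 (filterByExpr, 17168 genes, TMM, 1 robust quasi-likelihood fit of all 3 groups, common biological coefficient of variation 0.193, 6 residual degrees of freedom), two-sided with Benjamini-Hochberg adjustment over all genes tested and a threshold of 0.05. CPM are TMM-scaled on totals that include ribosomal RNA, and genes without a symbol (525) held 0.0384% of counts. Lengths are of the longest principal coding transcript in GENCODE M21 (GRCm38). Groups came from the sample titles, which name no batch. No pair of libraries held identical values, and each counted as 1 replicate.

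Members, lists and tests were chosen with earlier results of these data known. The text names all members, in each pathway list and comparison genes called or else the gene with the smallest p, 9 genes chosen for their role (Vcan, Col3a1, Col1a1, Col1a2, Timp3, Fbln1, Bmp1, Vegfc and Ccbe1) and the 3 closest profiles per member. Some of these are given only as part of a count, and 1 of the closest profiles is not reported here. Alternatives covered scaling (DESeq2 size factors, library size alone, no ribosomal RNA genes), filters (none, 1 CPM in 3 libraries), DESeq2 1.42.0, limma voom 3.58.1, non-robust dispersion, only the 2 groups compared, a replicate block and leaving out each library. Leaving out UVB-Saline 3 and UVB-hCOL3A1 3 together was added after seeing the data. The test was checked on simulated counts with changes of 2-fold or more, so smaller changes were not covered.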

Additional observations from a re-analysis of the deposited data

How the results depend on the processing

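Of 480 log2 fold changes of members under 20 alternatives in 3 comparisons, 458 kept their direction and their side of the threshold, 8 of Adamts4 newly passed it and 14 changed sign. The members called numbered 1 for UVB-Saline against NoUVB with no filter, DESeq2 or the replicate block, and 1 for UVB-hCOL3A1 against NoUVB with these and with only the 2 groups compared (0 to 1 leaving out a library, 1 without UVB-Saline 3), against 0 otherwise. Pathway genes called numbered 1 for UVB-Saline against NoUVB by library size alone, DESeq2 or the replicate block. For UVB-hCOL3A1 against UVB-Saline they numbered 5 with no filter, 6 with DESeq2, 1 with the replicate block and 0 to 1 leaving out a library. For UVB-hCOL3A1 against NoUVB they numbered 3 with no filter, 5 with DESeq2, 5 with only the 2 groups compared, 3 with the replicate block, 0 to 4 leaving out a library (4 without UVB-Saline 3) and 1 without both libraries 3. The cause was not tested. Signs changed for Adamts2 in UVB-Saline against NoUVB (-0.0026 by library size alone, -0.072 to 0.26 leaving out a library, -0.071 without both libraries 3), for Adamts1 in UVB-hCOL3A1 against UVB-Saline (0.0028 with only the 2 groups, -0.069 to 0.15 leaving out a library) and for Adamts14 there (-0.019 to 0.17 leaving out a library, -0.069 without both libraries 3). Leaving out a library gave -0.48 to 0.042 for Adamts5 in UVB-Saline against NoUVB, and for Adamts3 -0.053 to 0.83 there, -0.62 to 0.26 in UVB-hCOL3A1 against UVB-Saline and -0.027 to 0.43 in UVB-hCOL3A1 against NoUVB. Over all genes, calls in UVB-Saline against NoUVB, UVB-hCOL3A1 against UVB-Saline and UVB-hCOL3A1 against NoUVB numbered 3, 0 and 7, against 100, 30 and 159 by library size alone, 73, 106 and 178 with no filter, 100, 173 and 269 with DESeq2, 61, 74 and 118 with the replicate block, 2, 0 and 0 with voom, 3, 0 and 1 with non-robust dispersion, 2, 0 and 407 with only the 2 groups, 5, 26 and 91 without both libraries 3, and 0 to 12, 0 to 78 and 0 to 242 leaving out a library. Library size alone moved the median of all genes by -0.116 in UVB-hCOL3A1 against NoUVB. Same-numbered libraries deviated together with correlations of 0.0181 to 0.41, and 5 of 9 were above 0.1 (all 3 pairs of replicate 3 among them). Since not every pair was above 0.1 and no label ties the numbers to an animal or day, the block was not used in the report. A library correlated best with its own number in 12 of 18 cases. Counts of 8 to 30 a library limit Adamts3, and 16.29 to 43.85 limit Adamts4 in NoUVB skin.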
